A study of Mus musculus with 4 samples.

Results

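Immediate early genes and heat-shock genes make up 33 of the 32285 genes counted in 4 single-cell RNA-seq libraries of mouse colon, and were chosen by name: 22 immediate early genes and 11 heat-shock genes, each present in all 4 count matrices. The cells were enriched for CD11b, an integrin of myeloid cells, by bead selection. Their sources were the colon lamina propria, a layer of connective tissue below the gut lining, and the solitary isolated lymphoid tissues of the colon, abbreviated SILT, which are small lymphoid structures. The mice were wild type (labelled Csf2+/+) or Csf2-/-, and so without the growth factor CSF2, also called GM-CSF. Every mouse also carried the reporter alleles CX3CR1-GFP/+ and CCR2-RFP/+, so each had 1 altered copy of both chemokine receptor genes, controls included. The 4 groups were wild-type lamina propria, Csf2-/- lamina propria, wild-type SILT and Csf2-/- SILT, each with 1 library and no treatment. The labels give neither the age of the mice nor the time or temperature of tissue dissociation, and the design text names 5 mice without saying how they were pooled. With 1 library per group no difference has a replicate check, and all comparisons are between libraries.

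Immediate early genes are transcribed within minutes of a signal without new protein synthesis, and their RNAs are short-lived. They encode transcription factors of the AP-1, EGR, KLF and orphan nuclear receptor families together with feedback inhibitors that shut the response down. Heat-shock genes encode chaperones that hold and refold proteins, some made constantly and some induced through the factor HSF1 when proteins misfold. Both groups are known to be induced in living cells during enzymatic tissue dissociation, and immediate early genes also answer microbial and cytokine signals in gut macrophages.

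The promoters of 5 members are shown from RefSeq (GRCm38.p6): Nr4a1 and Nr4a2, which had the largest Csf2-/- to wild-type ratios among members in macrophage-like cells of lamina propria and in monocyte-like cells of SILT, and the heat-shock genes past 1.5-fold between the Csf2-/- tissues in macrophage-like cells. They are printed, 5′ to 3′ on the gene's strand and ending at the base before the transcription start. In the 2 orphan nuclear receptor genes, the capitals mark the core of the cyclic AMP response element (TGACG or its reverse complement CGTCA). In the 3 heat-shock genes, they mark a pair of facing heat-shock element units (GAANNTTC).
Nr4a1, chr15:101266596-101266845, plus strand: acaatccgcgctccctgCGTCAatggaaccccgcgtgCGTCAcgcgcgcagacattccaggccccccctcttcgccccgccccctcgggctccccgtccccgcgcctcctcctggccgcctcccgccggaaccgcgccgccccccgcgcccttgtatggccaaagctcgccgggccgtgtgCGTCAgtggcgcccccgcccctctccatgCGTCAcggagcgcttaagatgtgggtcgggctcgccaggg
Nr4a2, chr2:57124004-57124223, minus strand: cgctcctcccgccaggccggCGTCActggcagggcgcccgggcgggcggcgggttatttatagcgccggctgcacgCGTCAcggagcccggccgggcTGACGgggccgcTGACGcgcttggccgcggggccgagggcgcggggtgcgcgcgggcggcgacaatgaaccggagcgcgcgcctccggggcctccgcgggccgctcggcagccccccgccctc
Hspa1a, chr17:34972157-34972306, minus strand: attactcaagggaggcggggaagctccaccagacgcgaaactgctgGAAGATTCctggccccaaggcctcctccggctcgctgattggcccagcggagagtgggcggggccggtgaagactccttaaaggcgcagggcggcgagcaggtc
Hspa1b, chr17:34959239-34959388, minus strand: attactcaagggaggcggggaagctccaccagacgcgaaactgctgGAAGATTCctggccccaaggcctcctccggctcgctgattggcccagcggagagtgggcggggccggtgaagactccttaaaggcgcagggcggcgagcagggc
Hspb1, chr5:135887769-135887918, plus strand: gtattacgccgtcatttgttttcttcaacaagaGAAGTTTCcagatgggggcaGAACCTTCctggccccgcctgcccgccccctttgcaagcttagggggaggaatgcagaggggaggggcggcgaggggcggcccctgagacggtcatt

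Both Nr4a1 and Nr4a2 hold 4 such cores in the 250 bases before the start, which 0.137% of 32851 RefSeq promoters of that length do, while 17.8% hold at least 1. Nr4a3, not printed, also holds 4. Hspa1a and Hspa1b, which lie 9951 bases apart on chromosome 17, are identical at 149 of the 150 bases shown, and each holds 1 heat-shock element pair, found in 12.8% of all promoters. Hspb1 holds 2, as do 1.46% of promoters. Of the 33 members, 27 had a promoter in the reference table, and a heat-shock element pair stood in 7 of 8 heat-shock genes and in 2 of 19 immediate early genes, Jun and Egr2. A gene was counted if any of its start sites held the motif, whereas the percentages count each promoter entry by itself. The pairs of Hspd1 and Hspe1 are the same bases, so the 7 genes are not independent. The cyclic AMP response core stood in 13 of 19 immediate early genes and 4 of 8 heat-shock genes. Egr1, Egr3, Ier2, Hspa8, Hsp90aa1 and Hsp90ab1 were the members without an entry. A match describes the letters only. The pair Hspa1a and Hspa1b also shares most of its transcript sequence, so the level of each of the 2 copies is uncertain, and both are given side by side below.

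The libraries held 2158 to 8041 barcodes and 19225644 to 67656927 UMIs (unique molecular identifiers, each standing for 1 captured RNA molecule). Filters of 200 or more genes and no more than 10% mitochondrial UMIs, and removal of called doublets, left 16365 cells: 4436 from wild-type lamina propria, 1967 from Csf2-/- lamina propria, 7594 from wild-type SILT and 2368 from Csf2-/- SILT, with median depths of 5819.5 to 9959 UMIs. Pairs of libraries shared 3 to 19 barcodes. Csf2, the deleted gene, had 24 UMIs in wild-type SILT, 2 in wild-type lamina propria and 0 in either Csf2-/- library, where a count of 0 allows up to 0.16 CPM (lamina propria) and 0.145 CPM (SILT). Female-specific Xist (265 to 825 CPM) and Y-linked Ddx3y (28.1 to 58.5 CPM) both occurred in each library at unequal levels, so the libraries mix the sexes in different parts. Clusters were built without the 33 genes and without the other gene lists used below, and were named only from marker genes. The macrophage-like class (1229, 397, 1267 and 509 cells) and the monocyte-like class (118, 133, 228 and 243 cells) carried Itgam, the gene of CD11b, at 275 to 427 CPM. Itgam was all but absent from the 2806 blood endothelial-like cells, at 1.58 to 4.19 CPM in 3 libraries and with 0 UMIs among the 254 such cells of the Csf2-/- lamina propria library (a count of 0 permits 1.29 CPM at most), so part of what was captured goes against the CD11b label. These endothelial-like cells are used below as a class from the same libraries that is not myeloid. Groups of 4 values are always in the order wild-type lamina propria, Csf2-/- lamina propria, wild-type SILT, Csf2-/- SILT.

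Levels are in CPM, the UMIs of a gene summed over a cell class and scaled to the same total of UMIs in every library. In 10x 3′ libraries 1 UMI stands for 1 molecule whatever the gene's length, so levels can be set beside each other between genes. A gene counted as measured in a comparison when it averaged at least 10 CPM over the 2 libraries, and as higher or lower when it differed at least 1.5-fold with a 95% exact counting interval clear of 1. That interval covers counting error only, not the spread between mice. Where both libraries of a genotype or tissue are said to lie above or below the others, the share of all genes so ordered is not given. The same holds where 1 library is said to be the highest or lowest. For a member named for a difference between 2 libraries, the order of those 2 was fixed by the naming. Shares given for all measured genes use the fold alone. Of the 58 differences of single members named below for 3 classes, 20 stayed past 1.5-fold in each of the 15 to 17 alternative ways of processing tried, and the others are given with an alternative that brought them under it. The alternatives include changes of the floor and of the lists, which cannot alter the ratio of a single member. In macrophage-like cells 31 of the 33 members averaged at least 10 CPM over the 4 libraries, and the orphan receptor Nr4a3 (2.3 to 4.57 CPM) and the zinc-finger factor Egr3 (4.09 to 13.4 CPM) did not.

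Immediate early RNA was a larger part of the transcriptome than heat-shock RNA in all classes with at least 50 cells other than cluster 24 and Csf2-/- cluster 4. Summed over the 22 genes it made up 13521, 15189.8, 12814 and 13325 CPM of macrophage-like cells. Monocyte-like cells stood higher, at 23809.6, 21922, 18722 and 17648 CPM, with no overlap with the macrophage-like libraries. Type 2 dendritic cell-like cells held 19566, 21518, 16086 and 16414 CPM, and blood endothelial-like cells 11259, 14612, 12743 and 13244 CPM. The lowest levels among classes with 50 cells were in cluster 4, a group of shallow cells led by Cst7, Pla2g2d and Il22ra2, at 4880.1 CPM in wild-type and 2481 CPM in Csf2-/- SILT, and in cluster 24 of wild-type SILT, at 4115 CPM. Cluster 24 did not pass the marker rule for naming and is called epithelial below. Heat-shock RNA varied less between classes: 5729.7, 5481, 5067 and 4159 CPM in macrophage-like cells, 4856 to 5416 CPM in monocyte-like cells and 5786 to 6142 CPM in blood endothelial-like cells. Plasma cell-like cells, measured in SILT alone, stood apart at 2552 CPM in wild type and 2026 CPM in Csf2-/-.

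The AP-1 subunits held the top of the immediate early list in macrophage-like cells. Fos, the partner that needs a Jun protein to bind DNA, stood at 2422, 2943, 3138 and 2868 CPM, which was 17.9 to 24.5% of the summed list. Jun stood at 1910.4, 1575, 1718 and 1334 CPM, and Jund, the steadiest of the subunits, at 1084, 1233, 1159.8 and 1143 CPM. None of the 3 differed 1.5-fold between any pair of libraries compared. Dusp1, a phosphatase that switches off MAP kinases, was the fourth by mean level at 974, 1449.8, 946 and 1209 CPM, with both Csf2-/- libraries above both wild-type ones. Among the chaperones Hsp90ab1, the constantly made HSP90, led with 1585, 1441, 1549.8 and 1285 CPM, followed by Hspa8, the constantly made HSP70, with 1327, 1390.5, 1207 and 1086 CPM. Both were lowest in Csf2-/- SILT, by less than 1.5-fold. The stress-inducible HSP70 genes came next, Hspa1b with 764, 783, 658 and 418 CPM and Hspa1a with 852, 642, 507 and 357 CPM. Junb, Btg2 and the endothelial and T cell quiescence factor Klf2, at 376 to 1204 CPM, and the chaperones Hspe1, Hspd1, Dnajb1, Dnaja1 and Hsp90aa1, at 71.9 to 438 CPM, did not differ 1.5-fold between any libraries compared.

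**Figure D1:**
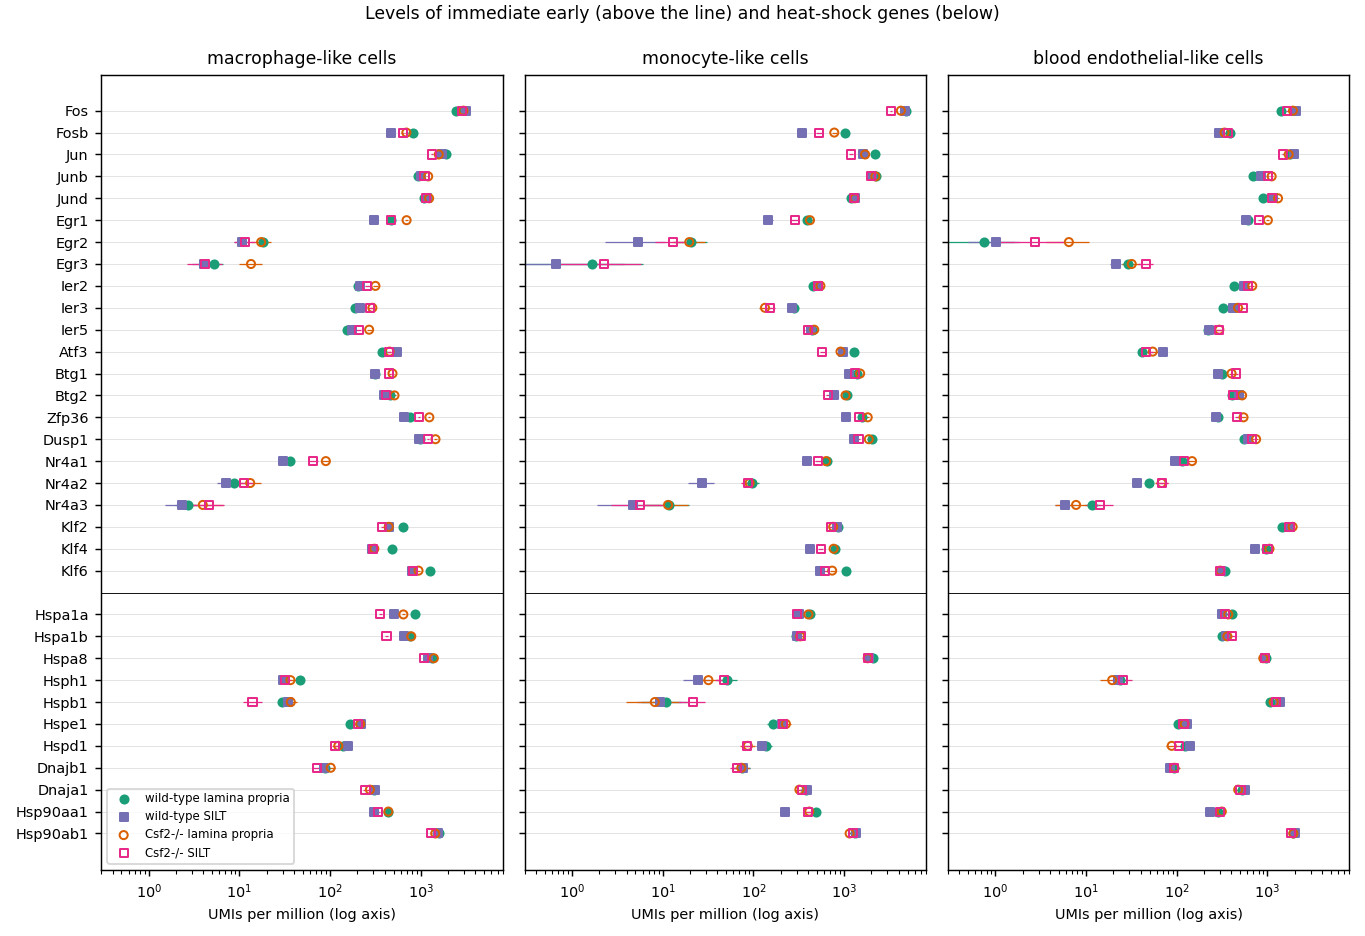
Levels of the 33 members in macrophage-like, monocyte-like and blood endothelial-like cells, in CPM on a log axis. Each point is 1 library (filled wild type, open Csf2-/-, circles lamina propria, squares SILT), and bars are 95% exact counting intervals. Nr4a1 in macrophage-like cells shows both open symbols (65.4 and 89.6) to the right of both filled ones (30.2 and 36.2).

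Csf2-/- was first set against wild-type lamina propria, which asks how the members differ where CSF2 is missing outside the lymphoid structures. In macrophage-like cells 7 of 20 measured immediate early genes were at least 1.5-fold higher in Csf2-/- and 1 was lower, while none of the 11 heat-shock genes was either. Of all 8092 genes measured there, 4.23% were at least 1.5-fold higher and 6.6% lower, and of those with at least 100 CPM 3.86% and 6.49%. The median log2 ratio was 0.32 over the immediate early genes (order-statistic interval −0.08 to 0.62, 14 of 20 above 0) and 0.02 over the heat-shock genes, against −0.04 over all measured genes. Over 11 genes chosen as steady references the median was also 0.32, and relative to them the medians were −0.0022 over the immediate early genes and −0.30 over the heat-shock genes.

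Nr4a1, an orphan nuclear receptor whose promoter with 4 cyclic AMP response cores is printed above (gene at chr15:101254269-101274795, plus strand, GRCm38), differed most. Its level was 36.2, 89.6, 30.2 and 65.4 CPM, with both Csf2-/- libraries above both wild-type ones. It was 2.48-fold higher in Csf2-/- lamina propria (2.16 to 2.84). When every cell was thinned to 1000 UMIs, 3.12, 8.62, 1.81 and 6.24% of macrophage-like cells held an Nr4a1 UMI, in the same order. Its paralogue Nr4a2 was far lower, at 8.71, 13.1, 7.07 and 11.2 CPM, and 1.51-fold higher in Csf2-/- lamina propria (1.07 to 2.1), a difference that turned to a log2 ratio of −0.0033 when cells needed 500 genes.

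Zfp36 encodes tristetraprolin, which binds and destabilises cytokine mRNAs (chr7:28376784-28380253, minus strand). It stood at 754, 1240.2, 644 and 952 CPM and was 1.64-fold higher in Csf2-/- lamina propria (1.59 to 1.7). The early response genes moved over a narrow range: Ier5 stood at 154, 269, 173 and 206 CPM (1.75-fold, 1.63 to 1.89). Ier2 stood at 203, 315, 215 and 258 CPM (1.56-fold, 1.46 to 1.66), and Ier3, a modulator of survival signalling, at 189, 292, 215 and 278 CPM (1.54-fold, 1.44 to 1.65). Btg1, an antiproliferative gene, stood at 315, 487, 311 and 447 CPM (1.55-fold, 1.46 to 1.63). For Zfp36, Ier2, Ier3, Ier5 and Btg1 both Csf2-/- libraries lay above both wild-type libraries. These genes were named for being higher in Csf2-/- lamina propria, so part of that ordering was fixed in advance. Klf4, a zinc-finger factor of monocyte differentiation (chr4:55527143-55532466, minus strand), went the other way with 479.8, 307, 287 and 295 CPM: wild-type lamina propria stood alone, and the ratio was 0.639 (0.601 to 0.68). Nr4a1 was the 1 member of these 8 past 1.5-fold in all alternatives, with a log2 ratio of at least 0.98. Relative to the reference genes Zfp36 came to 0.39, Ier5 to 0.48, Ier2 to 0.31, Ier3 to 0.30 and Btg1 to 0.30 on the log2 scale, and Klf4 came to −0.47 with clusters given equal weight.

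The make-up of the macrophage-like class differed between the libraries being compared. Cluster 1, led by Folr2, Lyve1 and Cd163, held 65.0, 46.1, 49.9 and 38.3% of its cells, and cluster 2, led by Mmp13, Lag3 and Ms4a7, held 21.2, 41.3, 39.5 and 53.6%. Summed immediate early RNA was 11254, 10588, 9521 and 9867 CPM in cluster 1 and 18878, 17901, 15505 and 14999 CPM in cluster 2. Within these 2 clusters the median log2 ratio of the immediate early genes in Csf2-/- against wild-type lamina propria was near 0, at 0.044 in cluster 1 and 0.0016 in cluster 2. The class also holds cluster 18, of shallow cells, and cluster 21, led by Lyve1, Vsig4 and Fcna, with 27 and 23 cells in Csf2-/- lamina propria, too few for ratios of single genes here. Their summed immediate early RNA was higher in that library, at 16274 against 9825 CPM in cluster 18 and 21118 against 14961 CPM in cluster 21. Single genes kept part of their difference within clusters 1 and 2. Nr4a1 was 17.6 CPM in wild-type and 29.6 CPM in Csf2-/- cells of cluster 1 (1.68-fold, 1.19 to 2.35) and 68.7 against 113 CPM in cluster 2 (1.64-fold, 1.37 to 1.97). Zfp36 had log2 ratios of 0.52 and 0.33, Ier5 of 0.37 and 0.56, Ier2 of 0.18 and 0.50, and Btg1 of 0.17 and 0.35 in clusters 1 and 2. Klf4 was as far below 0 within the clusters, at −0.67 and −0.70, as in the whole class.

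**Figure D2:**
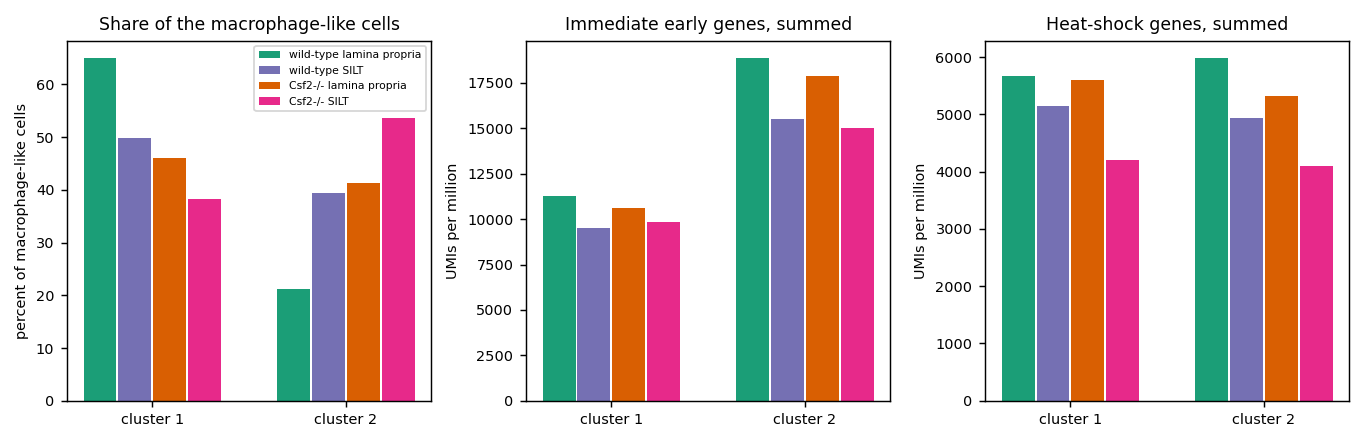
Share of macrophage-like cells in clusters 1 and 2 (percent), and summed immediate early and heat-shock RNA within each cluster (CPM), with 1 bar per library and all axes from 0. Cluster 2 holds 21.2% of the wild-type lamina propria cells and 53.6% of the Csf2-/- SILT cells, and its immediate early sum (14999 to 18878) exceeds that of cluster 1 (9521 to 11254) in every library. Intervals, not drawn, would cover counting error only.

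Monocyte-like cells of the same libraries gave a value near 0 over the list. Their immediate early median log2 ratio was −0.07 (6 of 21 above 0) and no immediate early gene was at least 1.5-fold higher and 1 was lower, where 6.59% of 7304 measured genes were higher and 11.2% lower. Nr4a1 stood at 643, 631, 385 and 514 CPM there, and the lamina propria ratio was near 1. Ier3 was lower in both Csf2-/- libraries, with 278, 134, 268 and 152 CPM: the ratio was 0.482 (0.397 to 0.582) in lamina propria. Of the chaperones, Hspd1, the mitochondrial HSP60, stood at 139, 86.5, 123 and 85.1 CPM, with a lamina propria ratio of 0.623 (0.484 to 0.799) and both Csf2-/- libraries below both wild-type ones. Hsph1, an HSP110 exchange factor, stood at 51.3, 31.8, 24.1 and 46.8 CPM, with a lamina propria ratio of 0.621 (0.405 to 0.942), and its order reversed in SILT. None of the 3 stayed past 1.5-fold throughout: Ier3 came to −0.56 and Hspd1 to −0.51 at Leiden resolution 0.5, and Hsph1 to −0.15 with doublets kept.

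Blood endothelial-like cells, which hold next to no Itgam, differed in the same direction as the macrophage-like cells in lamina propria. Their immediate early median log2 ratio was 0.41 (0.36 to 0.56), 17 of 20 genes were above 0, 4 were at least 1.5-fold higher and none lower, against 4.45% higher and 4.96% lower among 8474 measured genes and an all-gene median of 0.02. Zfp36 stood at 282, 544, 269 and 466 CPM and was 1.93-fold higher (1.8 to 2.07). Egr1, a zinc-finger factor induced by growth factors, stood at 615, 1010.0, 577 and 812 CPM (1.64-fold, 1.56 to 1.73). Junb, an AP-1 subunit, stood at 686, 1111, 838 and 1010.3 CPM (1.62-fold, 1.55 to 1.7), and Ier2 at 428, 679, 546 and 613 CPM (1.59-fold, 1.49 to 1.69). All 4 genes were higher in both Csf2-/- libraries than in both wild-type ones, an ordering whose lamina propria part was fixed by how they were named. The heat-shock median of these cells was 0.01. The reference genes had a median of 0.25 in this class, and relative to them the medians were 0.15 over the immediate early and −0.25 over the heat-shock genes. On that scale Zfp36 stayed past 1.5-fold, at a log2 ratio of 0.69, and Egr1 (0.46), Junb (0.44) and Ier2 (0.41) did not.

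Across the 9 cell classes with 50 cells in both lamina propria libraries, the class median of the immediate early genes was above 0 in 8, from −0.07 in monocyte-like cells to 0.71 in cluster 11, with 0.41 in the middle. The heat-shock class median lay between −0.26 in type 2 dendritic cell-like cells and 0.42 in cluster 9, with a middle value of 0.00. Relative to the reference genes of each class the middle values were 0.15 and −0.30. Zfp36, Ier2, Ier5, Btg1 and Jund were above 0 in all 9 classes. Zfp36 and Ier2 were higher in 6 of them by the fold and interval used here, Nr4a1 in 6, Btg1, Egr1, Junb and Ier3 in 5. The share of all measured genes at least 1.5-fold higher was 3.99% in type 2 dendritic cell-like cells, 4.08% in cluster 3, 7.21% in cluster 6, 8.97% in cluster 10, 21.3% in cluster 11 and 35% in cluster 9, beside the values above for the other 3 classes, and clusters 9 and 11 hold shallow cells. Zfp36 reached its largest log2 ratio, 1.41, in cluster 10, which stayed unnamed and was led by Rgs4, Pdgfrb and Notch3. Jun and Fosb were above 0 in only 3 of the 9 classes, and Klf6 in 1, so members of the same list did not move as a block. Klf2 and Klf4 had their lowest values in macrophage-like cells, at −0.54 and −0.65, and were above 0 in 6 classes. Among the chaperones Hspd1 was below 0 in 9 of 9 classes and its binding partner Hspe1, the mitochondrial HSP10, above 0 in 8. All classes of a comparison come from the same pair of libraries, so a shared sign is not replication, here or below. The share of all genes with the same sign in every class is not given.

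**Figure D3:**
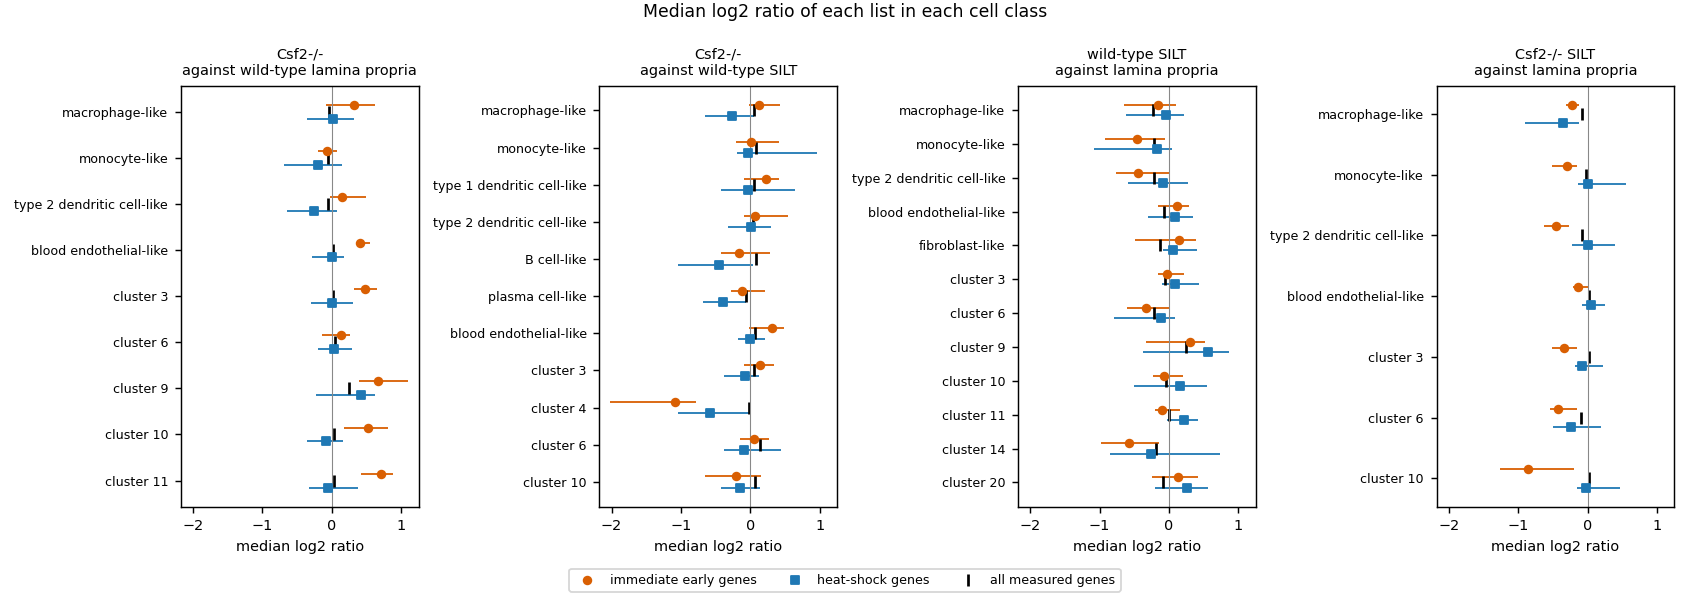
Median log2 ratio of the measured immediate early genes (circles), heat-shock genes (squares) and all measured genes (ticks) in each cell class, 1 panel per comparison, with order-statistic intervals over the members. In the first panel 8 of 9 circles lie right of 0, and in the last panel all 7 lie left of 0.

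The second comparison set Csf2-/- against wild-type SILT and shares no library with the first. In macrophage-like cells 2 of 19 measured immediate early genes were at least 1.5-fold higher and none lower, and 2 of 11 heat-shock genes were lower and none higher. Among 7825 measured genes 5.43% were higher and 2.24% lower, or 2.37% and 1.53% of those with at least 100 CPM. Nr4a1 was again higher, 2.16-fold (1.86 to 2.52), with log2 ratios of 0.55 in cluster 1, where the interval of 0.91 to 2.32 includes 1, and 1.0 in cluster 2. Egr1 stood at 474, 696, 302 and 464 CPM and was 1.54-fold higher (1.46 to 1.62), but its log2 ratio was −0.054 when the clusters of the class were given equal weight, whereas Nr4a1 kept at least 0.77 in all alternatives. Zfp36 had a log2 ratio of 0.56, under the 1.5-fold threshold. The immediate early median was 0.13 and that of the reference genes 0.12, and relative to them the list stood at 0.0039.

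Heat-shock genes had a median log2 ratio of −0.27 in these macrophage-like cells, with 2 of 11 above 0, against a median of 0.12 for the reference genes. Hspb1, the small heat-shock protein HSP27 that binds unfolded proteins (chr5:135887919-135889563, plus strand), stood at 29.3, 36.8, 34.0 and 13.9 CPM. Csf2-/- SILT lay apart from the other 3, with a ratio of 0.41 (0.315 to 0.527), and the log2 ratio was −1.56 in cluster 1 and −0.62 in cluster 2. Blood endothelial-like cells hold far more Hspb1, at 1063, 1169, 1364 and 1238 CPM, and the 9 of 9 endothelial markers summed to 109, 62.0, 155 and 49.2 CPM in macrophage-like cells, or 0.37 to 1.11% of their endothelial level, lowest in the same library. Their part in the result was not tested. Hspa1b was also lowest in Csf2-/- SILT, at 0.635 of wild type (0.606 to 0.666), with log2 ratios of −0.65 and −0.44 within clusters 1 and 2, and −0.49 with all clusters given equal weight. Hspb1 stayed past 1.5-fold in all alternatives, but its log2 ratio of −1.29 came to −0.65 with levels averaged over cells. Hspa1a, the near-identical copy of Hspa1b, had a log2 ratio of −0.51.

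Monocyte-like cells of SILT showed differences in both directions. Of 19 measured immediate early genes 3 were at least 1.5-fold higher and 2 lower, and 3 heat-shock genes were higher, where 14.5% of 7033 measured genes were higher and 5.25% lower. The share of immediate early genes higher is near that background. The orphan receptor Nr4a2 stood at 95.1, 90.6, 26.8 and 86.8 CPM: wild-type SILT was the low library, and the ratio of Csf2-/- to wild type was 3.24 (2.27 to 4.7). Egr1 had the same shape, with 389.6, 419.6, 145 and 286 CPM (1.98-fold, 1.68 to 2.33), as did the AP-1 subunit Fosb, with 1022, 778, 347 and 528 CPM (1.52-fold, 1.37 to 1.7). Hsp90aa1, the stress-inducible HSP90, stood at 488, 412, 223 and 398 CPM (1.79-fold, 1.57 to 2.04), again with wild-type SILT alone at the bottom. Nr4a2, Egr1, Fosb and Hsp90aa1 were named for being higher in Csf2-/- than in wild-type SILT, so part of that placing was fixed in advance. Hsph1, given above, was 1.94-fold higher (1.3 to 2.95). Ier3 was lower, with a ratio of 0.569 (0.485 to 0.665). Hspb1 stood at 10.8, 8.16, 9.39 and 21.4 CPM, nominally 2.28-fold higher (1.21 to 4.56), but 73.7% of its UMIs in Csf2-/- SILT came from the top 1% of cells, and without those cells the log2 ratio was −0.16. Nr4a2 and Hsp90aa1 stayed past 1.5-fold in all alternatives. Egr1 came to 0.39 and Hsph1 to 0.52 with doublets kept, Fosb to 0.28 in thinned cells, and Ier3 to −0.47 with at most 5% mitochondrial UMIs.

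Atf3, a stress-induced AP-1 partner that often represses its targets (chr1:191170296-191218039, minus strand), was the member lower in the most SILT classes. In monocyte-like cells it stood at 1274, 911, 979 and 575 CPM, with a SILT ratio of 0.587 (0.541 to 0.636), past 1.5-fold in all alternatives. Its log2 ratio was below 0 in 11 of 11 classes and it was lower in 9 of them, all but the macrophage-like and type 2 dendritic cell-like ones. The share of all measured genes at least 1.5-fold lower was 2.24% in macrophage-like, 3.17% in blood endothelial-like and 5.25% in monocyte-like cells. It was 6.55% in type 2 and 9.06% in type 1 dendritic cell-like cells, 9.22% in plasma cell-like and 13.4% in B cell-like cells, and 4.6, 5.27, 15.1 and 20% in clusters 3, 6, 10 and 4. The values ran from −0.30 in macrophage-like cells, where it stood at 372, 452, 547 and 445 CPM, to −2.75 in B cell-like cells, where 281 UMIs in wild type faced 7 in Csf2-/-. Without the 1% of cells with the highest list share the B cell value was −2.65. Over all cells the log2 ratio was 0.13. Markers of epithelial cells moved with this comparison: the sum of the 7 of 7 found, of which Krt20 was at 0, was 5.27, 1.84, 58.8 and 6.67 CPM in macrophage-like cells, and in monocyte-like cells 1.65, 0.816, 57.0 and 2.25 CPM, highest in wild-type SILT, which also held 127 epithelial cells with Atf3 at 104 CPM. Their part in the result was not tested.

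In blood endothelial-like cells 5 of 21 immediate early genes were at least 1.5-fold higher in Csf2-/- SILT and 1 was lower, against 9.4% higher and 3.17% lower of 8430 measured genes. Their median was 0.31 and that of the reference genes 0.05. Zfp36 was 1.73-fold higher (1.62 to 1.85). Nr4a2 stood at 48.9, 68.0, 36.6 and 68.2 CPM (1.86-fold, 1.55 to 2.23) and Btg1 at 313, 402, 282 and 444 CPM (1.57-fold, 1.47 to 1.69), both with the Csf2-/- libraries above the wild-type ones. Egr3, a zinc-finger factor close to Egr1, stood at 28.7, 31.9, 21.2 and 45.7 CPM (2.16-fold, 1.71 to 2.71). Nr4a3, the remaining orphan receptor, stood at 11.7, 7.75, 5.86 and 14.2 CPM (2.42-fold, 1.56 to 3.69) with no ordering by genotype. Atf3 was the lower one, at 41.8, 54.2, 70.6 and 46.1 CPM, a ratio of 0.653 (0.533 to 0.794). Zfp36, Nr4a2 and Egr3 stayed past 1.5-fold in all alternatives. Nr4a3 came to a log2 ratio of 0.037 with clusters given equal weight, Btg1 to 0.55 with TMM factors and Atf3 to −0.39 with doublets kept.

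Across 11 classes with 50 cells in both SILT libraries the immediate early class median ran from −1.08 in cluster 4 to 0.31 in blood endothelial-like cells, with 7 above 0 and a middle value of 0.05, which was −0.080 relative to the reference genes. In cluster 4, 14 of 17 measured immediate early genes were at least 1.5-fold lower in Csf2-/-, against 20% of all genes, and without the 1% of cells with the highest list share the median was −0.76. These are ratios of summed counts. Among its 586 wild-type and 85 Csf2-/- thinned cells, the median cell held 1 immediate early UMI in both libraries. From the lowest to the highest tercile of mitochondrial share, wild-type cells averaged 1.13, 1.23 and 3.54 such UMIs. Csf2-/- cells averaged 1.03, 1.22 and 1.31, so the thinned cells differed mainly in the highest tercile. The heat-shock median was below 0 in 10 of 11 classes, with a middle value of −0.09. Fos, Jun, Hspd1, Dnaja1 and Hsp90ab1 were below 0 in 11 of 11 classes, though few passed 1.5-fold: Jun was lower in 4, Fos in 3, Hspd1 in 2, Dnaja1 in 1 and Hsp90ab1 in none. Nr4a2 was above 0 in 8 of 8 classes. Btg1, Zfp36, Klf4 and Hsp90aa1 were above 0 in 10 of 11. B cell-like cells had the lowest Hspa1a value, a log2 ratio of −2.71 from 196 UMIs in wild type against 5 in Csf2-/-.

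**Figure D4:**
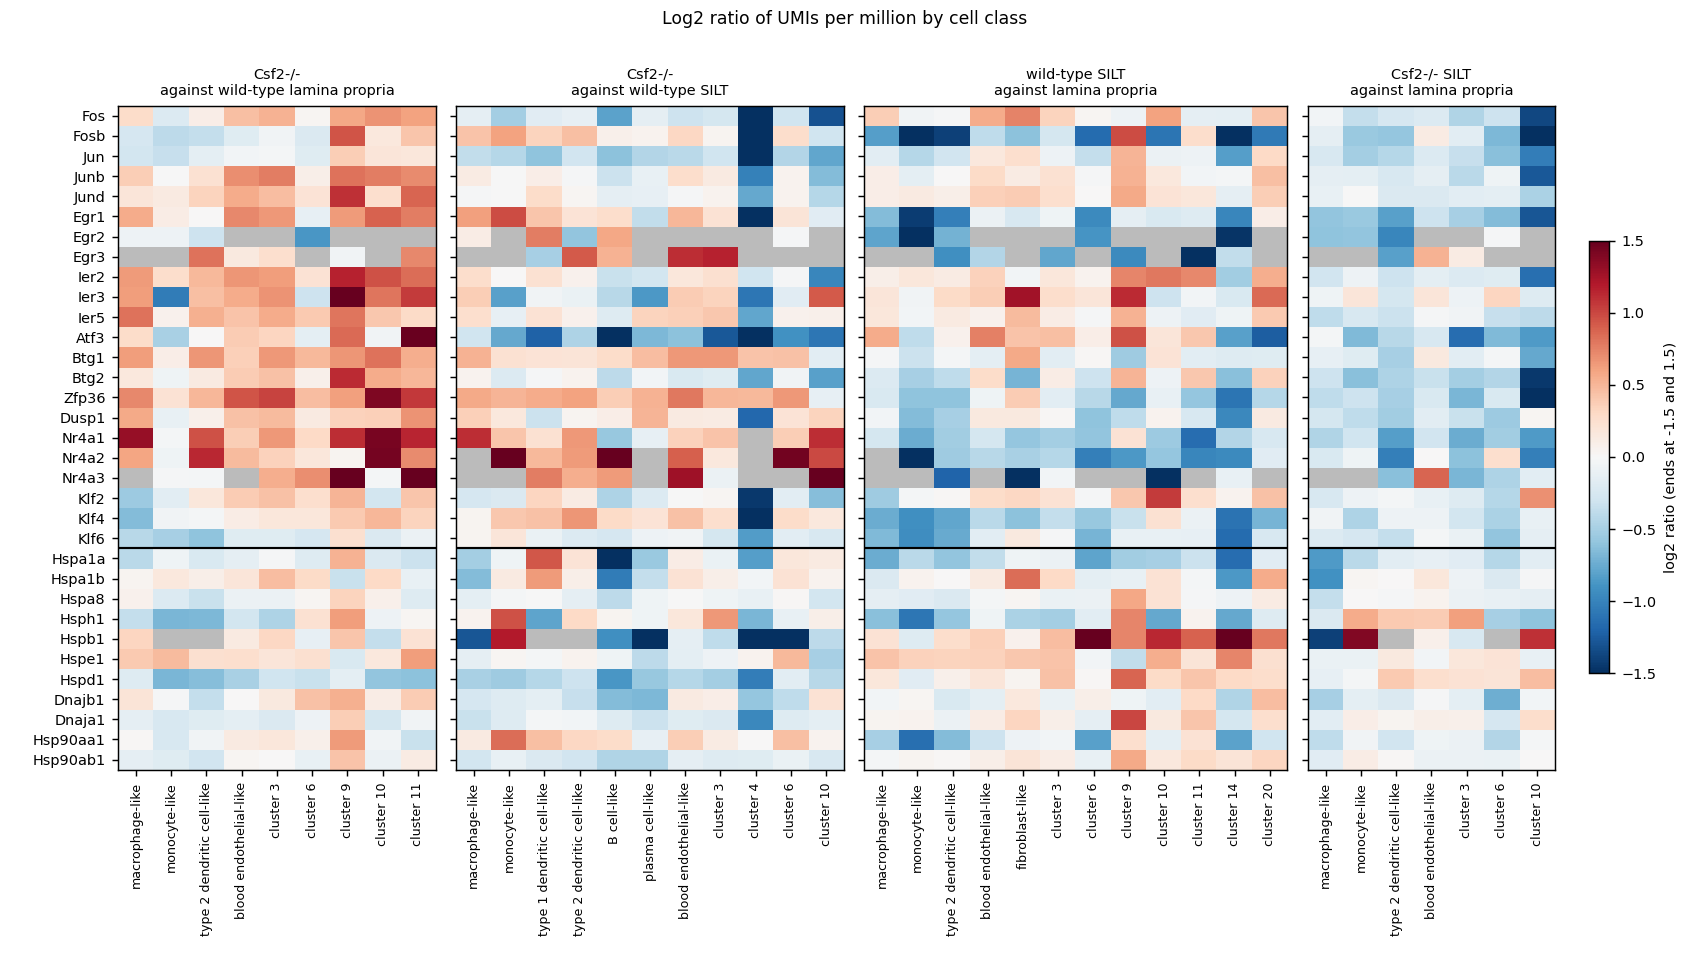
Log2 ratio of CPM for each member (rows, immediate early above the line, heat-shock below) in each cell class (columns), 1 panel per comparison. Red is higher and blue lower in the first-named library, colours end at −1.5 and 1.5, and grey means under 10 CPM. Zfp36 is above 0 in all 9 classes of the first panel and in 10 of 11 of the second, and Atf3 is below 0 in 11 of 11 of the second.

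Wild-type SILT was then set against wild-type lamina propria, a comparison of the tissues that shares a library with each of those above. In macrophage-like cells 5 of 19 measured immediate early genes and 2 of 11 heat-shock genes were at least 1.5-fold lower in SILT and none higher, where 6.56% of 7957 measured genes were higher and 21.4% lower. The share of members lower is near that background. Fosb stood at 826, 692, 467 and 629 CPM, with a ratio of 0.565 (0.547 to 0.583), and wild-type SILT was the lowest of the 4. Klf6, a zinc-finger factor of inflammatory macrophages, stood at 1254, 942, 793 and 817 CPM (0.632, 0.616 to 0.648). Klf4, given above, had a ratio of 0.598 (0.574 to 0.623), and Egr1 one of 0.636 (0.611 to 0.662). For Klf4 and Klf6 wild-type lamina propria stood alone at the top. Egr2, a zinc-finger factor of macrophages, was low throughout, at 18.3, 17.3, 10.6 and 11.4 CPM, with a ratio of 0.576 (0.462 to 0.714) and both SILT libraries below both lamina propria ones. Hspa1a had a ratio of 0.595 (0.577 to 0.614), and Hsph1, at 46.7, 36.5, 30.3 and 31.4 CPM, one of 0.649 (0.57 to 0.738). Hspa1b, the copy of Hspa1a, was 658 against 764 CPM, so the pair did not differ alike, though the level of each copy is uncertain. Of the 7, Fosb alone stayed past 1.5-fold in all alternatives. The least log2 ratios were −0.54 for Klf4 and Hspa1a and −0.46 for Klf6 with TMM factors, −0.32 for Egr1 with equal weight, −0.49 for Egr2 with doublets kept and −0.16 for Hsph1 in thinned cells.

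Monocyte-like cells had the larger tissue difference in wild type. Of 20 measured immediate early genes 9 were at least 1.5-fold lower in SILT and none higher, and the median was −0.46, where 8.56% of 7152 measured genes were higher and 26% lower and the all-gene median was −0.22. Egr2 stood at 20.7, 19.6, 5.36 and 13 CPM (0.259, 0.101 to 0.593), and gave a log2 ratio of 0.069 when cells were thinned to 1000 UMIs. Nr4a2 had a ratio of 0.282 (0.192 to 0.407), Fosb of 0.339 (0.305 to 0.376) and Egr1 of 0.372 (0.315 to 0.438). Klf4 stood at 792, 765, 418 and 553 CPM (0.528, 0.477 to 0.585) and Klf6 at 1041, 737, 547 and 620.4 CPM (0.525, 0.48 to 0.574). Among the chaperones Hsp90aa1 had a ratio of 0.456 (0.398 to 0.523) and Hsph1 of 0.471 (0.303 to 0.721). For Nr4a2, Fosb, Egr1, Klf4, Klf6, Hsp90aa1 and Hsph1 wild-type SILT was the lowest of the 4 libraries. They were named for being lower there than in wild-type lamina propria, so part of that placing was fixed in advance. Apart from Hsph1 (−0.58 with doublets kept) these genes stayed past 1.5-fold in all alternatives. The share of mitochondrial UMIs was lowest in wild-type SILT too, with class medians of 2.53, 2.55, 1.62 and 1.98% in monocyte-like and 4.22, 3.86, 2.68 and 3.33% in macrophage-like cells, and its part in the result was not tested.

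Blood endothelial-like cells did not follow. Their immediate early median was 0.11, or −0.062 relative to the reference genes, against −0.07 over all genes, and 1 member passed 1.5-fold: Atf3 was 1.69-fold higher in SILT (1.49 to 1.93), where 3.58% of 8369 measured genes were higher and 6.64% lower. Over the 12 classes with 50 cells in both wild-type libraries the immediate early class median was above 0 in 4, with a middle value of −0.09, and the heat-shock one was above 0 in 7, with 0.07, which was −0.25 relative to the reference genes. Single members were steadier than the lists: Hspa1a and Nr4a2 were below 0 in 12 of 12 and 11 of 11 classes, Egr1, Klf4 and Klf6 above 0 in 1 of 12, and Hspb1 above 0 in 11 of 12. Summed epithelial markers were again higher in wild-type SILT, at 57.5 against 3.94 CPM in blood endothelial-like cells, where Hspb1 is 1063 to 1364 CPM, and the epithelial cells held Hspb1 at 24.6 CPM.

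The last comparison, Csf2-/- SILT against Csf2-/- lamina propria, had the fewest genes past 1.5-fold in macrophage-like cells: 1.75% of 7996 measured genes were higher and 3.24% lower. None of 20 immediate early genes was above 0, the median was −0.23, and 2 were at least 1.5-fold lower, Egr1 (0.666, 0.63 to 0.704) and Egr2 (0.66, 0.457 to 0.95). Of the 11 heat-shock genes none was above 0 and 3 were lower, with a median of −0.36. The 3 were Hspb1 (0.378, 0.281 to 0.506), Hspa1b (0.534, 0.505 to 0.564) and Hspa1a (0.557, 0.524 to 0.592). All 3 promoters are printed above with their heat-shock element pairs. That pair stood in 7 of the 8 heat-shock genes with a promoter entry, so it does not set these 3 apart. Hspb1 stayed past 1.5-fold in all alternatives, but its log2 ratio of −1.40 came to −0.64 without the 1% of cells with the highest list share. With equal weight Hspa1a came to −0.56 and Hspa1b to −0.53. The immediate early values were less steady: the median turned to 0.026 when list genes were kept for clustering and was −0.040 with at least 500 genes per cell, Egr1 came to −0.16 with at least 500 genes and Egr2 to −0.15 with at most 5% mitochondrial UMIs. Within clusters 1 and 2 the log2 ratios were −0.65 and −0.88 for Hspa1a, −0.89 and −0.77 for Hspa1b, and −1.74 and −0.60 for Hspb1. The constantly made chaperones Hspa8 and Hsp90ab1 had log2 ratios of −0.36 and −0.16.

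The other classes of this comparison gave other heat-shock values. Hspa1a in macrophage-like cells lay 0.68 log2 units below the median of the other 6 classes and Hspa1b 0.90 units below. The heat-shock class medians outside macrophage-like cells ran from −0.23 in cluster 6 to 0.05 in blood endothelial-like cells. The immediate early medians were below 0 in 7 of 7 classes, from −0.85 in cluster 10 to −0.14 in blood endothelial-like cells, and 0 of 7 classes were above 0 for Fos, Jun, Junb, Jund, Egr1, Ier2, Ier5, Atf3, Btg2, Zfp36, Nr4a1, Klf4, Klf6 and the chaperone genes Hspa1a, Dnajb1 and Hsp90aa1. These classes again share their libraries, and the share of all genes so placed is not given. In monocyte-like cells, where 5.52% of measured genes were higher and 7.74% lower, Atf3 (0.631, 0.579 to 0.687) and Btg2, an antiproliferative gene at 1087, 1036, 769 and 669 CPM (0.646, 0.596 to 0.699), were the named lower genes, and Hspb1 the higher one (2.62, 1.28 to 5.9). Atf3 stayed past 1.5-fold in all alternatives, Btg2 came to −0.51 at Leiden resolution 0.5, and Hspb1 to 0.037 without the top 1% of cells. In blood endothelial-like cells only Nr4a3 passed (1.83, 1.01 to 3.42), with 2.56% of measured genes higher and 2.5% lower, and its log2 ratio was −1.20 in thinned cells.

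Single cells showed how widely the 2 lists spread inside a class. Thinned to 1000 UMIs, macrophage-like cells held 13.4, 16.1, 12.4 and 13.7 immediate early UMIs and 5.71, 5.73, 5.12 and 4.12 heat-shock UMIs on average. The 2 sums were weakly related over cells of a library, with Pearson's r of 0.20 to 0.25 over 383 to 1217 macrophage-like cells and −0.01 to 0.09 over 118 to 239 monocyte-like cells, where cells share a library and a fixed depth and no test is given. In macrophage-like cells immediate early UMIs were fewer where the mitochondrial share was higher. In the tercile of macrophage-like cells with the lowest mitochondrial share they averaged 17.4, 22.2, 16.5 and 16.9, in the middle tercile 12.5, 14.6, 11.9 and 14.0, and in the highest 10.1, 11.4, 8.93 and 10.4. The decline was present in all 4 libraries of this class but not in all classes. In wild-type lamina propria monocyte-like cells the terciles averaged 22.3, 24.1 and 22.7, and in the migratory dendritic cell-like cells of wild-type SILT they ran the other way, at 1.28, 2.9 and 8.12.

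**Figure D5:**
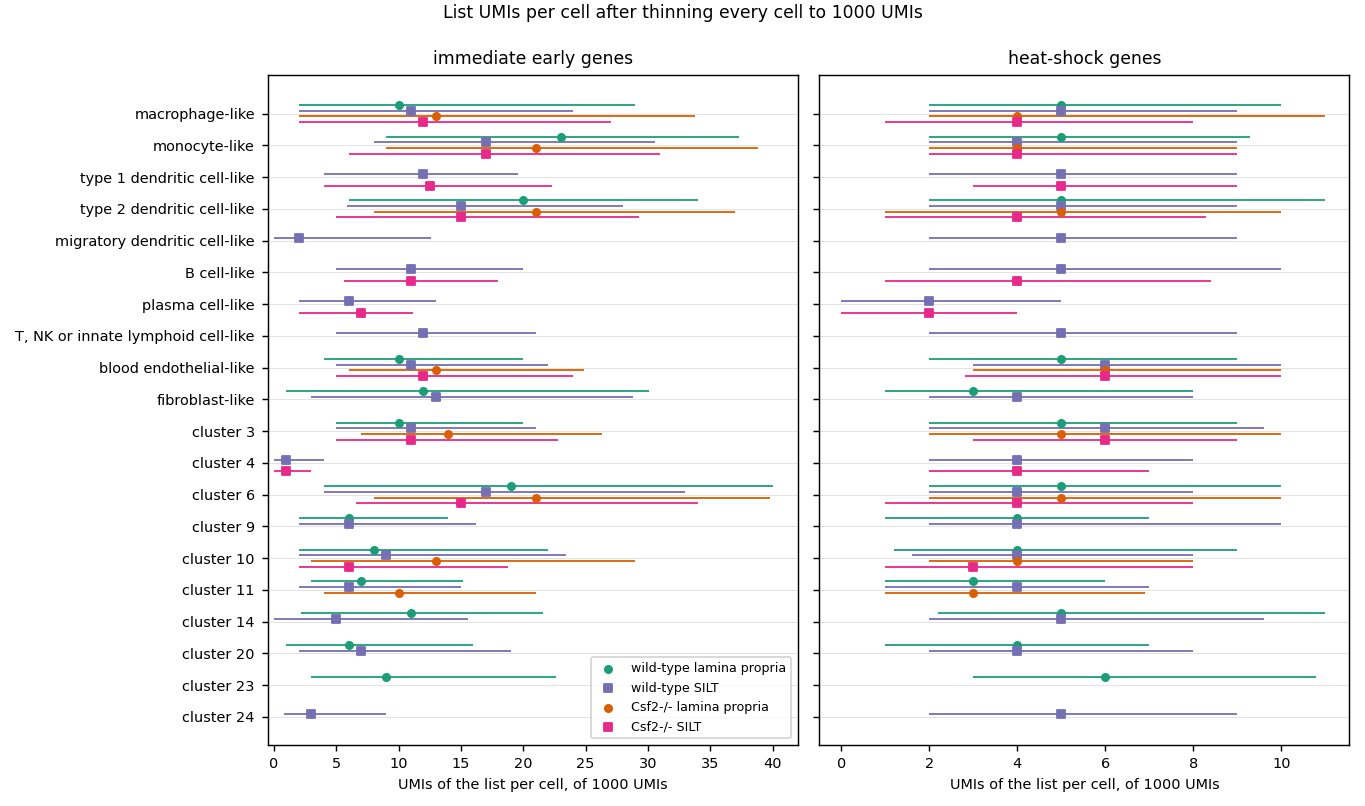
Immediate early (left) and heat-shock (right) UMIs per cell after every cell was thinned to 1000 UMIs, by cell class and library. Points are medians over cells and bars run from the 10th to the 90th percentile. Monocyte-like, type 2 dendritic cell-like and cluster 6 cells lie furthest right on the left panel, cluster 4 furthest left, and the heat-shock panel is flatter, with plasma cell-like cells lowest.

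Other genes of the same pathways in macrophage-like cells came from lists fixed by name. The values of these lists, here and in the next paragraphs, are over the whole class, whose make-up differed between libraries. Values within its clusters or relative to the reference genes are not given for them. The shares of all measured genes past 1.5-fold, given above, are repeated for their counts: 4.23% higher and 6.6% lower by genotype in lamina propria, 5.43% and 2.24% by genotype in SILT, 6.56% and 21.4% between wild-type tissues, and 1.75% and 3.24% between Csf2-/- tissues. Of 29 measured other immediate early genes, 8 were at least 1.5-fold higher and 2 lower in Csf2-/- lamina propria, with a median log2 ratio of 0.04. Dusp2, a nuclear MAP kinase phosphatase, stood at 52.3 against 16.7 CPM (3.13-fold, 2.59 to 3.78), and Id2, a helix-loop-helix inhibitor, at 105 against 51.4 CPM. In SILT 8 of 28 were higher and 1 lower, with a median of 0.33: Plk2, a stress-induced kinase, had a log2 ratio of −1.04 and Csrnp1 one of 0.88. Between wild-type tissues 2 of 28 were higher and 7 lower, led by Tob2 at −1.0 and Ccn1 at −0.84, a share lower that is near that of all genes, and between Csf2-/- tissues 3 of 31 were lower, led by Plk2 at −0.75 and Myc at −0.66. Of 13 measured kinases and factors that switch these genes on, none passed 1.5-fold in lamina propria, where Rps6ka3 had a log2 ratio of −0.37 and Creb1 of −0.35, and 2 of 12 were higher in SILT, Mapk8 at 0.75 and Mapkapk2 at 0.61. In wild-type SILT against lamina propria 7 of 12 were lower, Rps6ka3 at −0.94 and Mapk8 at −0.85 the furthest, and in Csf2-/- 1 of 13 was, Rps6ka3 at −0.87, followed by Elk4 at −0.44.

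Of 26 measured cytosolic chaperones and co-chaperones 1 was lower in Csf2-/- lamina propria, Dnajb4 at −0.61 followed by the HSP110 family member Hspa4 at −0.47. None passed in SILT, where Hspa4 had a log2 ratio of −0.53 and the HSP70 exchange factor Bag1 one of −0.50. Between wild-type tissues 1 was higher and none lower, the ubiquitin gene Ubb at 0.78, with Bag3 at −0.56. Between Csf2-/- tissues 1 was lower, Fkbp4 at −0.61, followed by Bag3 at −0.33. Of 8 mitochondrial chaperones none passed by genotype. Hspe1 at 0.39 and Hspa9 at −0.32 lay furthest out in lamina propria, and Hspd1 at −0.49 and Dnaja3 at 0.48 in SILT. Between wild-type tissues the protease Lonp1 at −0.84 and Dnaja3 at −0.63 were lower, and between Csf2-/- tissues Lonp1 was at −0.48 and Clpp at 0.20. Of the heat-shock factors and their binding protein, 3 were measured and none passed in any comparison. Hsf2 had a log2 ratio of 0.18 and Hsf1, the factor that induces the chaperone genes, one of −0.17 in lamina propria. Hsf2 at −0.28 and Hsbp1 at −0.20 led in SILT, Hsf1 at −0.58 and Hsbp1 at 0.35 between wild-type tissues, and Hsf2 at −0.50 and Hsf1 at −0.27 between Csf2-/- tissues.

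Of 18 measured early inflammatory genes driven by NF-kappaB, 9 were at least 1.5-fold higher and none lower in Csf2-/- lamina propria, with a median log2 ratio of 0.59. Cluster 2 held 21.2% of the wild-type and 41.3% of the Csf2-/- macrophage-like cells compared there, and its part in these values was not tested. The chemokine genes Cxcl1, at 57.3 against 11 CPM, and Ccl4, at 246.7 against 48.3 CPM, had log2 ratios of 2.38 and 2.35. In SILT 4 of 18 were higher with a median of 0.34, Cxcl1 at 1.04 and the inhibitor gene Nfkbiz at 0.74 the furthest. Between wild-type tissues 5 of 16 were higher in SILT and 1 lower, Il1b at 1.51 and Ccl4 at 1.48, and between Csf2-/- tissues none of 18 passed, with Ccl3 at −0.58 and Ptgs2 at −0.55. Of 18 endoplasmic reticulum stress genes, 2 were higher in Csf2-/- lamina propria, Sdf2l1 at 0.76 and Herpud1 at 0.69, and in SILT 2 were higher and 1 lower, Ddit3 at 0.74 and Pdia3 at −0.68 the furthest. Between wild-type tissues 4 were higher and 2 lower, Sdf2l1 at 1.15 and Atf4 at −1.0, and between Csf2-/- tissues none passed, Creld2 at 0.58 and Atf4 at −0.54. The 7 of 7 plasma cell markers, summing to 285, 334, 875 and 1016 CPM in macrophage-like cells, were higher in both SILT libraries, and their part in these values was not tested.

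The shorter lists gave these values. Of 6 measured glucocorticoid response genes 2 were higher in Csf2-/- lamina propria, the chemokine receptor Cxcr4 at 1.58 and the kinase Sgk1 at 0.92. In SILT Cxcr4 was at 1.48 and Klf9 at −0.82, between wild-type tissues Per1 at −0.76 and Sgk1 at 0.75, and between Csf2-/- tissues Klf9 at −0.88 and Errfi1 at −0.48. Of 8 metallothionein and oxidative stress genes none passed by genotype. Gclc at 0.44 and Prdx1 at 0.39 lay furthest out in lamina propria and Gclc at 0.30 and Sqstm1 at −0.29 in SILT. Between wild-type tissues Prdx1 was at 0.66 and Mt2 at −0.46, and between Csf2-/- tissues Mt2 at −0.95 and Hmox1 at −0.54. The cold-inducible RNA-binding genes Rbm3 and Cirbp had log2 ratios of 0.13 and 0.10 in lamina propria, 0.18 and 0.26 in SILT, 0.22 and 0.18 between wild-type tissues, and 0.27 and 0.33 between Csf2-/- tissues. Among the reference genes B2m and Hprt lay furthest out by genotype, at 0.54 and 0.40 in lamina propria and 0.35 and 0.27 in SILT. Gapdh at 0.67 and Sdha at −0.52 did so between wild-type tissues, and Ywhaz at −0.32 and Gapdh at 0.30 between Csf2-/- tissues.

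Genes whose level most followed the lists were ranked over 52 sums of a class in a library, which share libraries and depth. For the mean of the 22 immediate early genes the closest were Nfkb1, a subunit of NF-kappaB (Pearson's r 0.935), Ccnl1 (0.844), Picalm (0.838), Rin3 (0.831) and Rara, a retinoic acid receptor (0.807). The single members followed the mean of the others at r from 0.39 for Egr3 to 0.898 for Btg2. For the mean of the 11 heat-shock genes the closest were Spag9 (0.834), Prkd3 (0.807), Rsf1 (0.795), Diaph2 (0.793) and Rassf8 (0.791). Heat-shock members followed each other less, from −0.47 for Hspe1 to 0.611 for Dnaja1.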

How the data were processed

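The deposited files are sparse matrices of raw UMI counts per gene and barcode, 1 per library, made by the authors with Cell Ranger. The submitters' processing notes name version 2.1.1 and mm10, whereas per the file headers it was 6.0.0. Chemistry was 10x 3′ v2, per the labels' protocols. Barcodes under 200 genes or over 10% mitochondrial UMIs were left out, and doublets were called with Scrublet at 0.8% per 1000 cells. Scanpy 1.11.5 clustered all 4 libraries together (2000 variable genes without the 33 members and the other lists, 30 components, 15 neighbours, leidenalg 0.10.2 at resolution 1) into 28 clusters. Of these, 12 classes were named from at least 3 markers at 2-fold and in 10% of cells, and 10 clusters stayed unnamed. Counts were summed per class and library and given as CPM. With 1 library per group nothing was tested. Intervals are exact 95% Poisson, binomial or conditional binomial intervals (SciPy 1.17.1) for counting error, and those of list medians are order-statistic intervals over members. Only the fold and interval rule was tried on simulated data, Poisson counts for Csf2-/- against wild-type lamina propria. The simulation left out cell filters, clustering, list medians and the spread between cells and mice.

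Members, lists and classes were chosen with earlier results of these data known. Values in all 4 libraries are given for members past 1.5-fold with an interval clear of 1, at most the 8 furthest per class and comparison, and for the 4 highest per list in macrophage-like cells. Of the other lists, the 2 genes furthest from 1 are named. Promoters came from RefSeq GRCm38.p6. Alternatives changed the cell filters, doublets, clustering, depth, scaling (including TMM factors from edgeR 4.0.16), floor, lists and weights.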

Additional observations from a re-analysis of the deposited data

Results flagged for a closer look

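For 4 of 216 pairs of a member and a class measured in both tissues, over 7 classes, the member was at least 1.5-fold higher in Csf2-/- than in wild type in one tissue and at least 1.5-fold lower in the other. By the same rule 111 of 54052 such pairs over all genes (0.205%) were opposite, and 0.296% of those in cluster 10 and 0.381% in monocyte-like cells. The rule also needs an interval clear of 1, which genes with few counts seldom reach, and these shares are not matched for level. With 1 library per group the difference between the tissues was not tested. Cluster 10, an unnamed cluster led by Rgs4, Pdgfrb and Notch3, held 3 of the opposite pairs of members. Fos had log2 ratios of 0.67 in lamina propria (2932 CPM in Csf2-/- against 1841 in wild type) and −1.31 in SILT (1134 against 2807 CPM). Ier2 had log2 ratios of 0.95 in lamina propria (309.8 against 160.0 CPM) and −0.98 in SILT (141 against 278 CPM), and Junb had 0.77 (1422 against 834 CPM) and −0.65 (591 against 929 CPM). The Csf2-/- SILT value rests on 54 cells of that cluster. In monocyte-like cells, Hsph1 had log2 ratios of −0.69 in lamina propria (31.8 against 51.3 CPM) and 0.95 in SILT (46.8 against 24.1 CPM).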

How the results depend on the processing

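Of 520 alternative values of the list medians, 67 had the other sign, 48 of them heat-shock and 19 immediate early, and 63 of these 67 moved by less than the interval. In all, 509 moved by less than their interval, 10 moved further, and 1 with an interval clear of 0 turned sign. The cause was not tested in any of them. For the immediate early genes in macrophage-like cells, Csf2-/- SILT against lamina propria reversed to 0.026 when the members and list genes were kept among the variable genes, moved to −0.040 with at least 500 genes per cell, and moved to −0.44 with clusters given equal weight. Equal weight also moved the blood endothelial-like immediate early medians to 0.61 (Csf2-/- against wild-type lamina propria) and −0.24 (Csf2-/- SILT against lamina propria). Relative to the reference genes, an alternative chosen after seeing the data as was leaving out the shallow macrophage cluster, the blood endothelial-like and monocyte-like immediate early medians in lamina propria became 0.15 and −0.23. On the same scale the heat-shock values became −0.20 (monocyte-like, Csf2-/- SILT against lamina propria), −0.30 (over classes, Csf2-/- against wild-type lamina propria) and −0.25 (over classes, wild-type SILT against lamina propria). CPM without mitochondrial and ribosomal genes gave 0.037 for the heat-shock genes over classes in lamina propria. The immediate early median over classes in Csf2-/- against wild-type lamina propria stayed between 0.15 and 0.54 in 16 alternatives, and that in Csf2-/- SILT against lamina propria between −0.47 and −0.29.

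Of the single members, 763 alternative values moved by less than their interval, 168 moved further and 10 reversed. The 763 include those under a changed floor or list, which cannot alter the ratio of a single member. Nr4a2 in macrophage-like cells, Csf2-/- against wild-type lamina propria, became −0.0033 with at least 500 genes and −0.049 with list genes kept. Hspb1 in monocyte-like cells, Csf2-/- against wild-type SILT, became −0.82 with at most 5% mitochondrial UMIs, −0.92 with doublets kept, −0.94 at Leiden resolution 0.5, −0.88 at 2, and −0.16 without the top 1% of cells. Nr4a3 in blood endothelial-like cells, Csf2-/- SILT against lamina propria, became −1.20 in thinned cells, as Egr2 in monocyte-like cells, wild-type SILT against lamina propria, became 0.069. Egr1 in macrophage-like cells, Csf2-/- against wild-type SILT, became −0.054 with equal weight. No paired analysis was possible because each group holds 1 library. Counts under about 10 CPM, as for Nr4a3 and Egr3, limit the precision in the smaller classes.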
